A study of Mus musculus with 12 samples.

Results

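The genes described here are 33 mouse genes of sterol and fatty acid synthesis, chosen by name: 7 genes of the mevalonate pathway, 10 of the sterol branch that follows it, 5 regulators of the SREBP transcription factors, the sterol carrier gene Stard4 and the phosphatidate phosphatase gene Lpin1, and 9 genes of fatty acid synthesis, elongation and desaturation. A locus was taken when its gene name, or part of a merged name, equalled a chosen gene. This gave 34 of 27914 loci, of which 23136 carry a gene name. Of the 33 genes, 32 passed the filter on low values (at least 1 FPKM in at least 3 of the 12 libraries) and were tested among 12320 loci. The exception was Hmgcs1, the synthase that makes HMG-CoA early in the pathway, whose 2 loci on chr13_random are listed at 0 in all 12 libraries, which is not read as absence.

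Polyadenylated RNA was sequenced from mouse pluripotent cells of the strain C57 Bl/6J in 4 groups of 3 libraries. Epiblast-like cells (EpiLC) carried the wild-type genotype and came from embryonic stem cells (ESC) that spent 48 h on fibronectin in Activin A at 20 ng/ml, Fgf2 at 12 ng/ml and the serum replacement KOSR at 1%. The 3 remaining groups were ESC: a Sirt1 knockout in which Otx2 was also knocked down (Sirt1KO Otx2KD ESC), a Sirt1 knockout alone (Sirt1KO ESC) and wild-type ESC. All 3 grew on gelatin-coated plates in N2B27 without serum, with LIF, CHIR99021 at 3 uM, which blocks GSK3, and PD0325901 at 1 uM, which blocks MEK. Cell state and medium therefore cannot be told apart between EpiLC and ESC. The labels name no control for the knockdown, no number of clones and no method of knockdown, so its effect and that of handling or clone cannot be told apart. They do not say that the replicates came from separate cultures, so each p-value measures the spread between these libraries, which may be technical.

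As background, cells build sterols from acetyl-CoA by way of mevalonate, farnesyl diphosphate, squalene and lanosterol, and build fatty acids from the same acetyl-CoA through malonyl-CoA. The transcription factors SREBP1 and SREBP2 switch on genes of both pathways. When sterols are scarce, Scap carries them out of the endoplasmic reticulum to be cleaved and activated, and when sterols are plentiful, the Insig proteins hold Scap back.

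The deposited values are FPKM, which are per length, so levels of different genes can be set side by side. Relative sequencing depth, read from the steps between low FPKM values, ranged from 0.769 to 1.33 of that of wild-type ESC replicate 1. Sirt1 was at 16.03, 15.6 and 15.04 FPKM in Sirt1KO Otx2KD ESC, 15.3, 15.3 and 15.7 in Sirt1KO ESC, and 25.8, 25.4 and 26.2 in wild-type ESC. The labels do not say which part of Sirt1 was deleted, so a whole-gene value that is lower but not 0 checks the knockout only in part. Otx2 was at 6.33, 6.27 and 5.61 FPKM in Sirt1KO Otx2KD ESC, 34.2, 24.6 and 22.2 in Sirt1KO ESC, and 7.60, 6.85 and 7.68 in wild-type ESC. The summed level of 6 EpiLC marker genes was 762 to 779 FPKM in EpiLC, 38.2 to 41.6 in Sirt1KO Otx2KD ESC, 147 to 221 in Sirt1KO ESC and 41.0 to 43.5 in wild-type ESC, and that of 9 naive marker genes was 303 to 305, 1035 to 1049.6, 862 to 982 and 1004 to 1071 FPKM in the same order. The EpiLC marker sum includes Otx2, and its largest term was Dnmt3b (mean 112 FPKM in Sirt1KO ESC). Single markers differed: in Sirt1KO ESC against wild-type ESC, 5 EpiLC markers were higher, but Lef1 was lower (means 2.15 and 11.3 FPKM). In that comparison 7 naive markers were lower, but Klf4 (108 and 54.4) and Tfcp2l1 (150 and 84.1) were higher. Of all tested loci, 32.4% were higher and 32.7% lower there. The summed level of 8 endoderm and hepatocyte markers was 2.01 to 2.48 FPKM in EpiLC, 2.09 to 2.51 in Sirt1KO Otx2KD ESC, 1.22 to 1.68 in Sirt1KO ESC and 0.932 to 1.39 in wild-type ESC, with Alb and Ttr at or near 0 throughout. Of these 8 only Gata4 passed the filter, at means of 1.45, 1.77, 1.13 and 0.445 FPKM in the same order, and it was called higher than in wild-type ESC in each of the other groups. All tested loci of chromosome 8 and of chromosome 11 were shifted as a whole in EpiLC, Sirt1KO ESC and Sirt1KO Otx2KD ESC against wild-type ESC, by medians of 0.40, 0.46 and 0.36 log2 units on chromosome 8 and -0.46, -0.49 and -0.39 on chromosome 11. EpiLC, of wild-type genotype, shared these shifts with both knockout groups, so wild-type ESC stood apart from the other groups. In comparisons with wild-type ESC, a difference of cell line or culture therefore cannot be told apart from cell state or knockout. The genes Mvd and Sc4mol lie on chromosome 8, and Srebf1, Acly, Acaca and Fasn on chromosome 11.

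The proximal promoters of the sterol synthesis genes are shown first, because these genes turned out to vary together, and because SREBP acts with the factors NF-Y and Sp1 at sterol gene promoters. Windows from 250 bases before to 50 bases after each gene start were taken from RefSeq (GRCm38.p6) for 26 of the 33 genes, Sc4mol under its current symbol Msmo1. Both strands were searched for CCAAT (the NF-Y box), GGGCGG (the Sp1 box) and TCACNCCAC (a form of the sterol regulatory element), and no motif overlaps another in the sequences printed except where CCAAT occurs on both strands at CCAATTGG. The 170 bases before the start follow for 6 genes, 5′ to 3′ along the gene, with motif letters in capitals: Hmgcs1, with the sole match to TCACNCCAC among the 26 genes, Mvd, Lss and Sc4mol, which rose most in EpiLC among the sterol genes, Ebp, which moved the other way, and Fasn of fatty acid synthesis.
Hmgcs1: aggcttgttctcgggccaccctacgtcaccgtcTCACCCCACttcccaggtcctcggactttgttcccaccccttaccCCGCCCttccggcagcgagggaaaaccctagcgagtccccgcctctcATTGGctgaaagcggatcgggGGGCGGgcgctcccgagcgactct
Mvd: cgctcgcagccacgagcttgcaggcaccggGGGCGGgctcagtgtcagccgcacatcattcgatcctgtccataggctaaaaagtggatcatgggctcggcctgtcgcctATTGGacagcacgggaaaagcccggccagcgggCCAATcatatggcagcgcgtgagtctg
Lss: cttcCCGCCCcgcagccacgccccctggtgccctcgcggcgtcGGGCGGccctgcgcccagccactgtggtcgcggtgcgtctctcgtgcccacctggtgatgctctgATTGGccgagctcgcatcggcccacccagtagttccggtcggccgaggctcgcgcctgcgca
Sc4mol: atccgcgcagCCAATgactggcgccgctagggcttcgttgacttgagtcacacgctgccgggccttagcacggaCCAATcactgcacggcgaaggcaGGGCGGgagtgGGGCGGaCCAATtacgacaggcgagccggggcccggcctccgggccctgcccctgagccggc
Ebp: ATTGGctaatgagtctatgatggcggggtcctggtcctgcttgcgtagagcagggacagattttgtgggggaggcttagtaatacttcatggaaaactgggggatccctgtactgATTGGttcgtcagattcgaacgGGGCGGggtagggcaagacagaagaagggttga
Fasn: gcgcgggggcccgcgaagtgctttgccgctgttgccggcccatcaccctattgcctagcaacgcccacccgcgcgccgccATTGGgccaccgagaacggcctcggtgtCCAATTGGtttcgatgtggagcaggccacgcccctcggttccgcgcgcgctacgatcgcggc
In GRCm38.p6 these stretches are chr13:119690181-119690350 on the plus strand (Hmgcs1), chr8:122443423-122443592 on the minus strand (Mvd), chr10:76531435-76531604 on the plus strand (Lss), chr8:64733579-64733748 on the minus strand (Sc4mol), chrX:8193513-8193682 on the minus strand (Ebp) and chr11:120824548-120824717 on the minus strand (Fasn).

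Of the 14 sterol synthesis genes with a window, 13 (92.9%) held CCAAT, against 43.6% of the 8752 tested genes with a window and 41.1% of all 27025 genes of the table. GGGCGG was also held by 13 of the 14 genes, against 70.9% of tested genes and 38.2% of all genes. TCACNCCAC was held by 1 of the 14, against 1.45% of tested genes and 1.44% of all genes. Of the 6 fatty acid synthesis genes with a window, 3 held CCAAT and 3 held GGGCGG. A high share with CCAAT was not particular to the sterol synthesis genes. It was held by 4 of 5 SREBP regulators, and among the wider lists described below by 10 of 12 further fatty acid synthesis and activation genes. The other wider lists had 3 of 3 (sterol storage and release), 2 of 4 (other sterol synthesis and uptake), 1 of 5 (sterol efflux and LXR) and 1 of 10 (fatty acid oxidation). In Mvd the CCAAT letters begin 60 and 27 bases before the start, in Lss 62 bases before it and in Sc4mol 160, 96 and 55 bases before it. Ebp, whose RNA moved against the other sterol genes, holds CCAAT 170 and 55 bases before its start, so these letters do not separate it from them. A match is a description of letters, not evidence that a factor binds there.

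RNA of sterol synthesis was high in EpiLC and in Sirt1KO ESC, and low in Sirt1KO Otx2KD ESC and in wild-type ESC. The summed level of the 17 sterol synthesis genes was 1024, 1002 and 1006 FPKM in EpiLC, 520.0, 542 and 525 in Sirt1KO Otx2KD ESC, 939, 937 and 926 in Sirt1KO ESC and 565, 555 and 559.9 in wild-type ESC. No library of a group reached into another group, and Sirt1KO Otx2KD ESC was the lowest. Its place below wild-type ESC (means 529 and 560 FPKM) rested on Ebp, which moved against the other sterol genes. Ebp averaged 18.7 FPKM in Sirt1KO Otx2KD ESC and 51.7 in wild-type ESC, a wider gap than that of the sums. On the mevalonate pathway sum, which does not hold Ebp, these groups overlapped (161 to 177 and 162 to 168 FPKM). Mvd and Sc4mol, on the shifted chromosome 8, were large terms of the sterol sum in EpiLC and Sirt1KO ESC. Their means were 105 and 242 FPKM in EpiLC, 40.4 and 114 in Sirt1KO Otx2KD ESC, 86.9 and 248 in Sirt1KO ESC and 32.3 and 91.4 in wild-type ESC. The 9 fatty acid synthesis genes did not share the order of the sterol sum: their sum was 916, 914 and 896 FPKM in EpiLC, 671, 653 and 660.5 in Sirt1KO Otx2KD ESC, 842, 907 and 904 in Sirt1KO ESC and 845, 862 and 837 in wild-type ESC. On this sum Sirt1KO Otx2KD ESC lay below every other library, while Sirt1KO ESC overlapped both EpiLC and wild-type ESC. In bulk RNA, fewer cells that express a gene and less RNA per cell cannot be told apart.

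**Figure D1:**
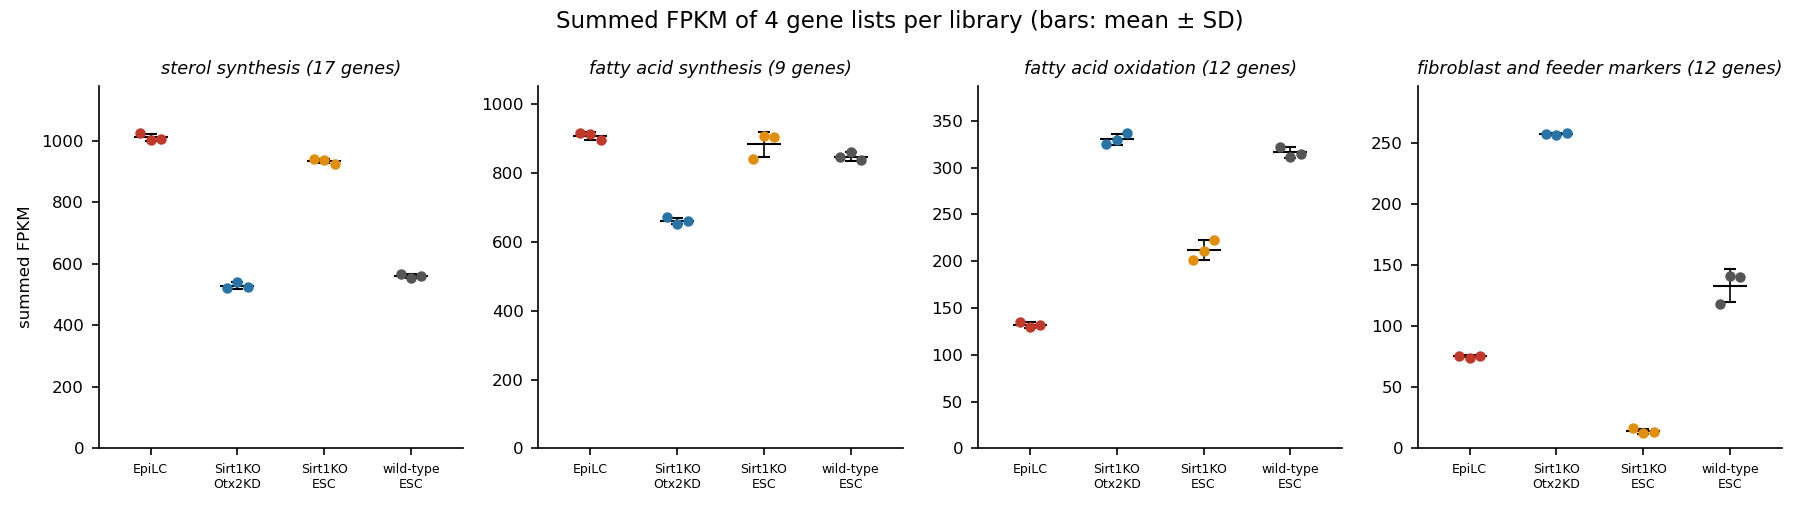
Summed FPKM per library (points, with mean ± SD) of 4 gene lists in the 4 groups, each panel starting at 0. Sterol synthesis lies at 1002 to 1024 FPKM in EpiLC and at 520.0 to 542 in Sirt1KO Otx2KD ESC.

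In EpiLC against wild-type ESC, 21 of the 32 tested genes rose, 7 fell and 4 did not pass the test (Idi1, Tm7sf2, Insig2 and Fasn). Changes are differences of log2(FPKM + 1) with their SE, which understate the change of genes with low FPKM, and calls are limma tests over all 12320 loci at a Benjamini-Hochberg adjusted p under 0.05. The background is high in this comparison, with 35.8% of all tested loci higher and 38.8% lower. The median change of the 32 genes was 0.43, against -0.02 over all tested loci. Among the 16 tested sterol synthesis genes, 13 rose and 1 fell (Ebp), with a median of 0.64. Among the 9 fatty acid synthesis genes, 4 rose and 4 fell, with a median of -0.04, so neither count of theirs stood far from the background.

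In Sirt1KO ESC against wild-type ESC, 19 of the 32 genes rose, 5 fell and 8 did not pass, where 32.4% of all tested loci were higher and 32.7% lower. The median change was 0.39, against 0.01 over all tested loci. Of the 16 sterol synthesis genes 13 rose and 1 fell (Ebp), with a median of 0.54, and of the 9 fatty acid synthesis genes 4 rose and 4 fell, with a median of -0.01. The 11 tested markers of fibroblasts and feeder cells all fell in this comparison too, and in EpiLC against wild-type ESC 7 of them fell and 1 rose. Their part in these results was not tested. Because both comparisons are set against the same 3 wild-type ESC libraries, their likeness is not counted as independent.

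In Sirt1KO Otx2KD ESC against Sirt1KO ESC, 5 of the 32 genes rose and 20 fell, where 31.1% of all tested loci were higher and 31.5% lower. The median change was -0.49, against -0.01 over all tested loci. No sterol synthesis gene rose, 12 of 16 fell and 4 did not pass (Mvk, Idi1, Tm7sf2 and Ebp), with a median of -0.78. Of the 9 fatty acid synthesis genes 3 rose (Acss2, Fasn and Elovl6) and 5 fell (Acly, Scd1, Scd2, Fads1 and Fads2), with a median of -0.33. The summed level of 12 fibroblast and feeder marker genes moved in the same comparison: it was 256 to 258 FPKM in Sirt1KO Otx2KD ESC and 12.2 to 16.2 in Sirt1KO ESC, beside 74.3 to 76.0 in EpiLC and 118 to 141 in wild-type ESC. All 11 tested markers were higher in Sirt1KO Otx2KD ESC than in Sirt1KO ESC, led by Col3a1 at 75.2 and 2.10 FPKM, none of the 12 had a mean of 0 in any group, and their part in the result was not tested.

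**Figure D2:**
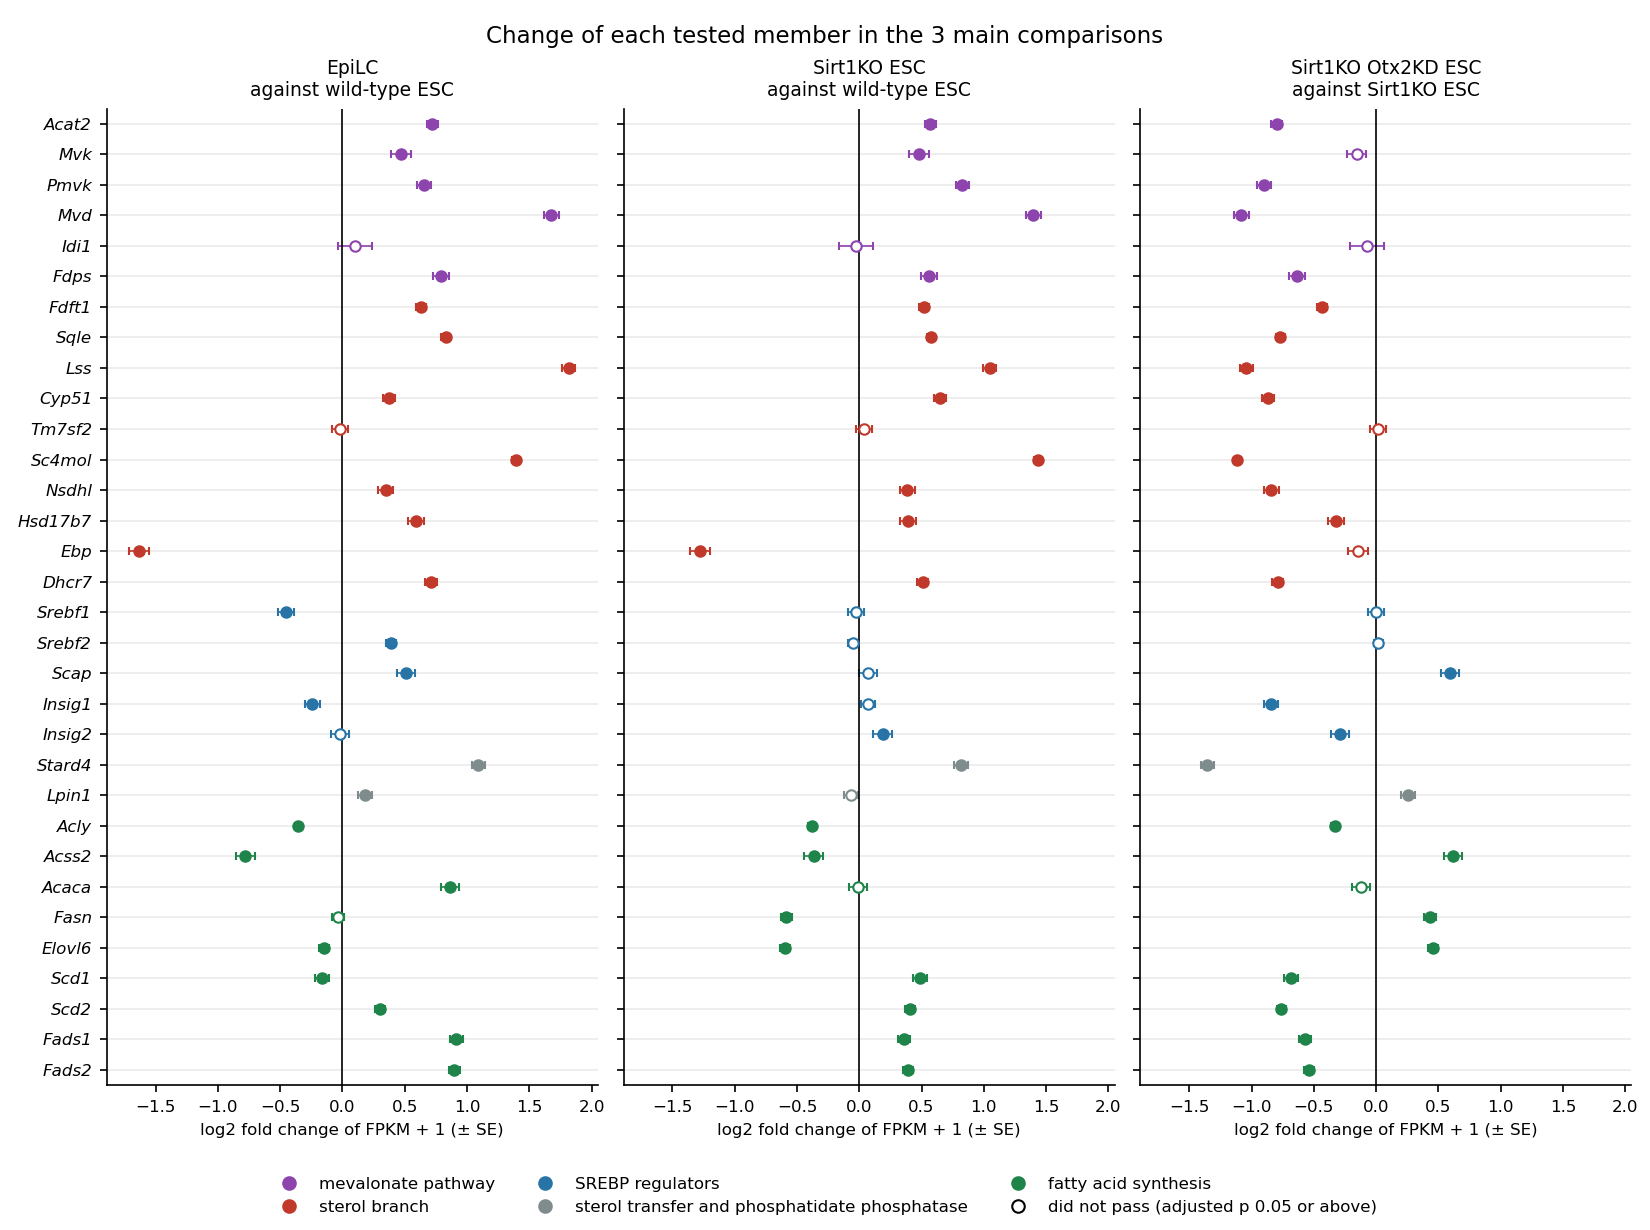
Log2 fold change with SE of the 32 tested genes in the 3 main comparisons, by role. Of the 16 sterol synthesis genes, 13 are called higher in each of the comparisons with wild-type ESC, and 12 are called lower in Sirt1KO Otx2KD ESC against Sirt1KO ESC.

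The mevalonate pathway turns acetyl-CoA into the isoprenoid units from which sterols are made. Its summed level was 332, 318 and 322 FPKM in EpiLC, 161, 177 and 164 in Sirt1KO Otx2KD ESC, 305, 294 and 279.9 in Sirt1KO ESC and 168, 162 and 167 in wild-type ESC. The largest change was in Mvd, the decarboxylase that ends the mevalonate steps (locus chr8:124957496-124967322 in mm9). Mvd had 108, 100.4 and 108 FPKM in EpiLC, 39.2, 40.1 and 41.9 in Sirt1KO Otx2KD ESC, 92.6, 88.6 and 79.4 in Sirt1KO ESC and 34.8, 30.3 and 31.9 in wild-type ESC. All EpiLC and Sirt1KO ESC libraries lay above all others, and all Sirt1KO Otx2KD ESC libraries lay above wild-type ESC. The change was 1.67 ± 0.06 in EpiLC against wild-type ESC (3.26-fold in mean FPKM, limma adjusted p = 1.23e-11), 1.40 ± 0.06 in Sirt1KO ESC against wild-type ESC (adjusted p = 1.78e-10) and -1.08 ± 0.06 in Sirt1KO Otx2KD ESC against Sirt1KO ESC (adjusted p = 3.81e-09). With the medians of each chromosome removed, these changes of Mvd were 1.20, 0.95 and -1.04, each still past the threshold.

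Acat2, the cytosolic thiolase that joins acetyl-CoA units at the head of the pathway, is on chromosome 17 and was likewise high in EpiLC and Sirt1KO ESC. Acat2 had 73.6, 65.5 and 68.9 FPKM in EpiLC, 35.2, 36.5 and 34.6 in Sirt1KO Otx2KD ESC, 64.0, 62.7 and 60.2 in Sirt1KO ESC and 42.3, 40.7 and 42.0 in wild-type ESC. EpiLC and Sirt1KO ESC lay apart from both other groups, and Sirt1KO Otx2KD ESC lay below wild-type ESC. Its change was 0.72 ± 0.04 in EpiLC against wild-type ESC, 0.57 ± 0.04 in Sirt1KO ESC against wild-type ESC and -0.80 ± 0.04 in Sirt1KO Otx2KD ESC against Sirt1KO ESC, with limma adjusted p of 3.44e-09, 7.49e-08 and 4.2e-09. Pmvk, the phosphomevalonate kinase, was highest in Sirt1KO ESC. Pmvk had 47.2, 48.5 and 49.5 FPKM in EpiLC, 28.6, 30.6 and 27.4 in Sirt1KO Otx2KD ESC, 57.8, 50.6 and 55.9 in Sirt1KO ESC and 31.98, 29.5 and 29.6 in wild-type ESC. Sirt1KO Otx2KD ESC and wild-type ESC overlapped, and the other groups lay above both. The change of Pmvk was 0.66 ± 0.06 in EpiLC against wild-type ESC, 0.83 ± 0.06 in Sirt1KO ESC against wild-type ESC and -0.90 ± 0.06 in Sirt1KO Otx2KD ESC against Sirt1KO ESC (limma adjusted p = 9.28e-08, 1.43e-08 and 1.02e-08).

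Fdps, the farnesyl diphosphate synthase, averaged 79.4 ± 2.98 FPKM in EpiLC, 43.2 ± 4.37 in Sirt1KO Otx2KD ESC, 67.6 ± 4.89 in Sirt1KO ESC and 45.5 ± 1.03 in wild-type ESC (SD, n = 3 each). It rose by 0.79 ± 0.07 in EpiLC and 0.56 ± 0.07 in Sirt1KO ESC against wild-type ESC, and its change in Sirt1KO Otx2KD ESC against Sirt1KO ESC was -0.64 ± 0.07, all past the threshold. Mvk, the mevalonate kinase, rose in EpiLC (0.47 ± 0.08) and in Sirt1KO ESC (0.48 ± 0.08) against wild-type ESC, but its -0.16 ± 0.08 in Sirt1KO Otx2KD ESC against Sirt1KO ESC did not pass the test (limma adjusted p = 0.0956). Without Sirt1KO Otx2KD ESC replicate 2, in which Mvk was at 20.7 FPKM against 16.5 and 17.1 in the other replicates, the change was -0.25 and passed (adjusted p = 0.00611). Idi1, the isopentenyl diphosphate isomerase, lay between 1.03 and 2.00 FPKM in all 12 libraries and passed in no comparison.

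**Figure D3:**
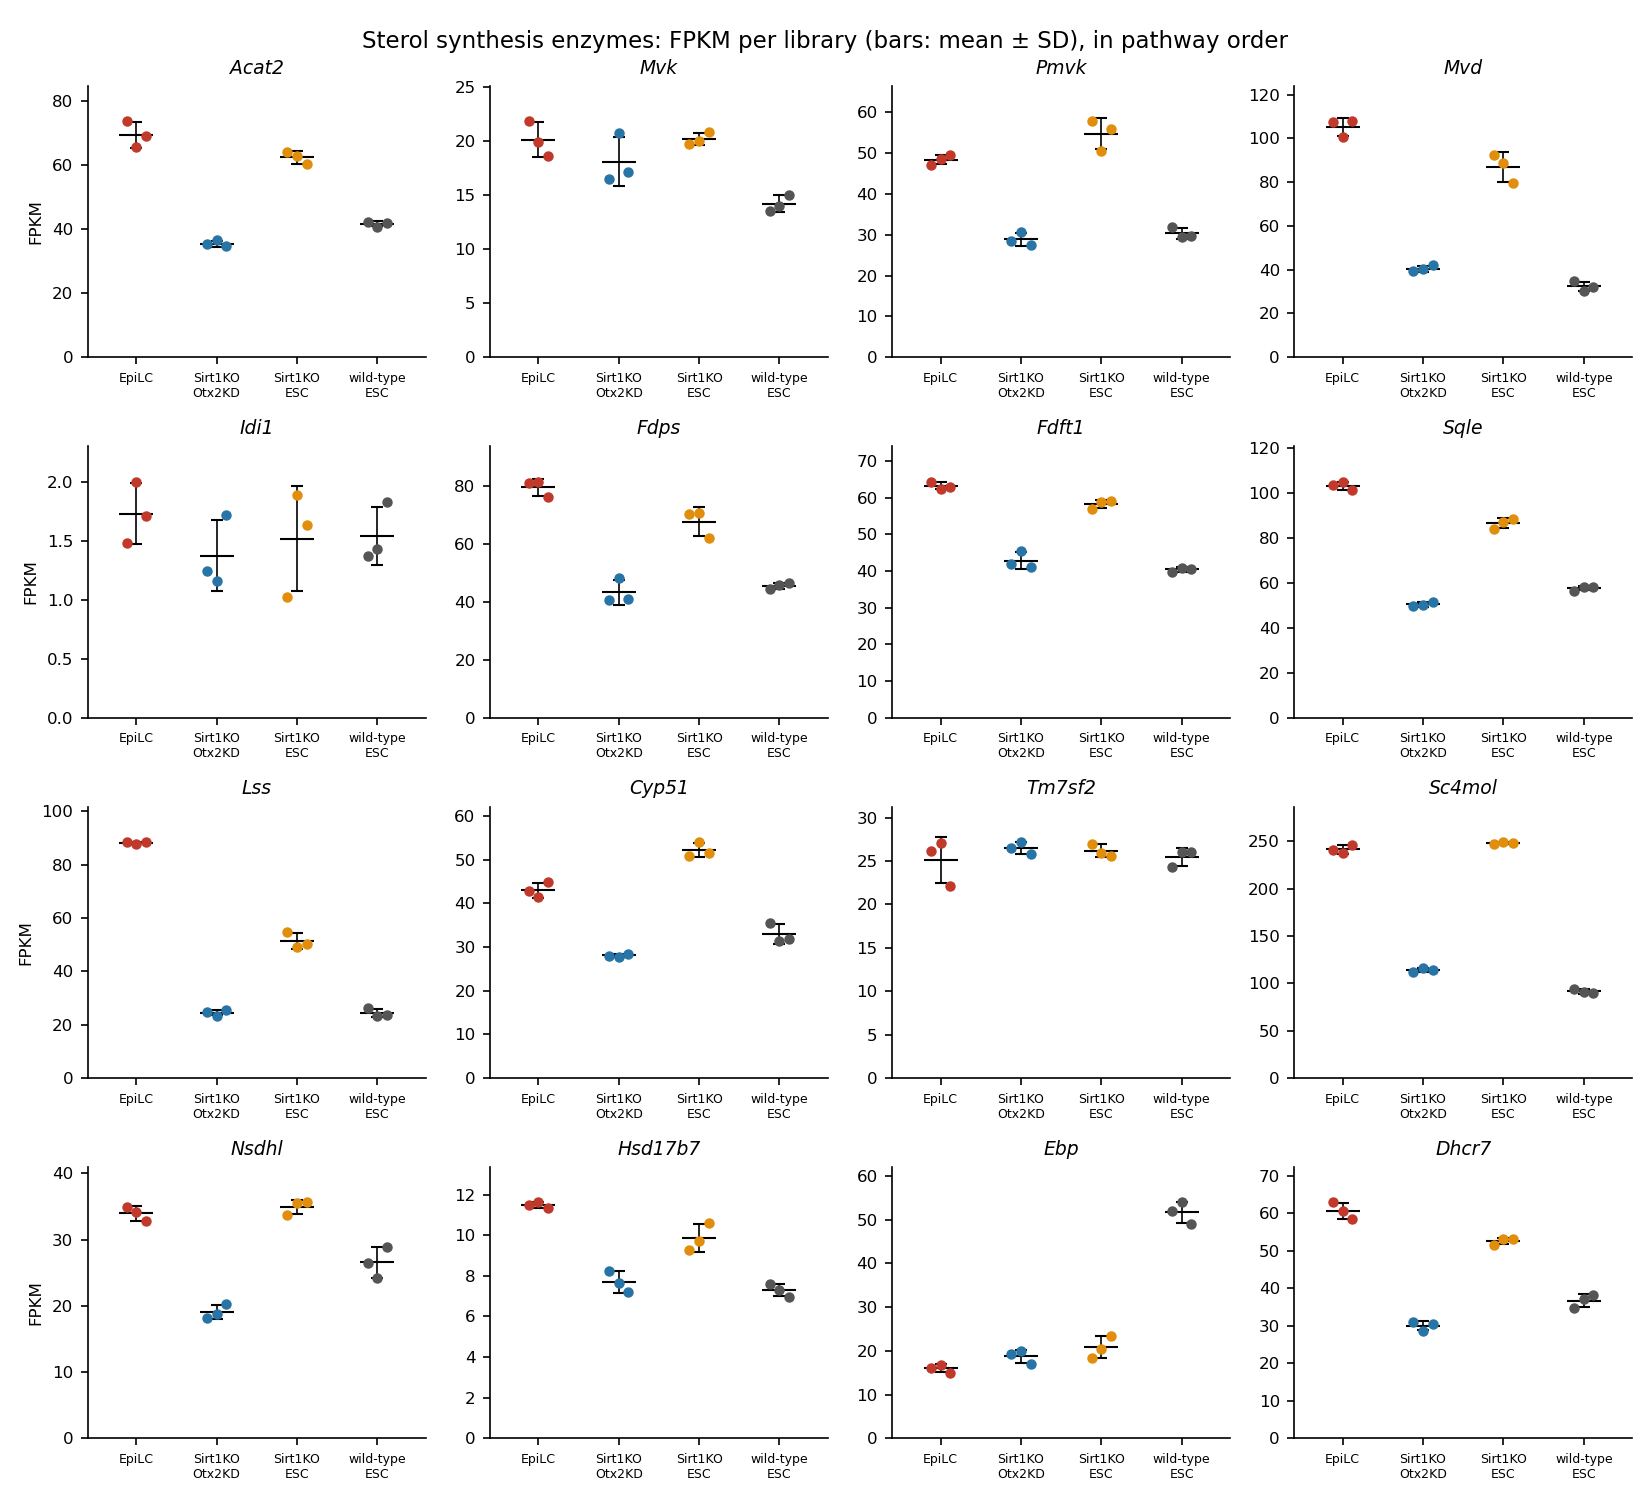
FPKM per library (points, with mean ± SD) of the tested sterol synthesis genes in pathway order, each panel with its own linear axis from 0. Mvd, Sc4mol and Lss are more than 2-fold higher in EpiLC and in Sirt1KO ESC than in wild-type ESC, while Ebp is highest in wild-type ESC.

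The sterol branch leads from farnesyl diphosphate through squalene and lanosterol to cholesterol. Its summed level was 692, 684 and 683 FPKM in EpiLC, 359, 365 and 361 in Sirt1KO Otx2KD ESC, 634, 643 and 646 in Sirt1KO ESC and 397, 393 and 393 in wild-type ESC. Sc4mol, the methylsterol oxidase that removes methyl groups from lanosterol-derived sterols, was the most abundant of the 10 genes in every group (locus chr8:67196942-67212375 in mm9). Sc4mol had 241, 237 and 246 FPKM in EpiLC, 112, 116 and 114 in Sirt1KO Otx2KD ESC, 247, 249 and 248 in Sirt1KO ESC and 94.2, 90.4 and 89.5 in wild-type ESC. The EpiLC and Sirt1KO ESC libraries ran from 237 to 249 FPKM, and no library of the other groups exceeded 116. Sc4mol changed by 1.39 ± 0.03 in EpiLC against wild-type ESC (2.64-fold, limma adjusted p = 1.22e-13), 1.43 ± 0.03 in Sirt1KO ESC against wild-type ESC (2.71-fold, adjusted p = 2.88e-13) and -1.12 ± 0.03 in Sirt1KO Otx2KD ESC against Sirt1KO ESC (adjusted p = 3.35e-12). With the chromosome medians removed these changes of Sc4mol were 0.92, 0.99 and -1.07, all still past the threshold.

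Lss, the lanosterol synthase that closes the sterol ring system, separated EpiLC from Sirt1KO ESC most among the sterol genes. Lss had 88.5, 87.9 and 88.4 FPKM in EpiLC, 24.6, 23.4 and 25.3 in Sirt1KO Otx2KD ESC, 54.8, 49.0 and 50.3 in Sirt1KO ESC and 26.1, 23.1 and 23.8 in wild-type ESC. EpiLC stood above Sirt1KO ESC, which stood above Sirt1KO Otx2KD ESC and wild-type ESC, and those groups overlapped. The change of Lss was 1.82 ± 0.05 in EpiLC against wild-type ESC (3.63-fold, limma adjusted p = 1.52e-12), 1.05 ± 0.05 in Sirt1KO ESC against wild-type ESC and -1.04 ± 0.05 in Sirt1KO Otx2KD ESC against Sirt1KO ESC. Between EpiLC and Sirt1KO ESC the difference was 0.77 ± 0.05 (limma adjusted p = 1.57e-08).

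Sqle, the squalene epoxidase and a flux-controlling step of the branch, showed the same order of EpiLC and Sirt1KO ESC. Sqle had 103, 105 and 101 FPKM in EpiLC, 49.6, 49.9 and 51.4 in Sirt1KO Otx2KD ESC, 84.0, 86.8 and 88.3 in Sirt1KO ESC and 56.5, 58.3 and 58.2 in wild-type ESC. The 4 groups did not overlap, and Sirt1KO Otx2KD ESC was lowest. Its change was 0.83 ± 0.03 in EpiLC against wild-type ESC, 0.58 ± 0.03 in Sirt1KO ESC against wild-type ESC and -0.77 ± 0.03 in Sirt1KO Otx2KD ESC against Sirt1KO ESC (limma adjusted p = 3.92e-11, 3.42e-09 and 3.44e-10).

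A further 5 genes of the branch also rose against wild-type ESC in EpiLC and in Sirt1KO ESC, and fell in Sirt1KO Otx2KD ESC against Sirt1KO ESC. Fdft1, the squalene synthase, averaged 63.2 ± 0.992 FPKM in EpiLC, 42.8 ± 2.41 in Sirt1KO Otx2KD ESC, 58.3 ± 1.12 in Sirt1KO ESC and 40.4 ± 0.606 in wild-type ESC (SD, n = 3 each). The deposited locus span of Fdft1 is shared with Ctsb (at most 58.4 FPKM), and how the authors' tools divided reads between neighbours is not given in the sources used here. Dhcr7, a reductase that ends a branch of cholesterol synthesis, averaged 60.6 ± 2.14, 30.0 ± 1.24, 52.6 ± 0.852 and 36.7 ± 1.74 FPKM in the same order of groups. Cyp51, the lanosterol demethylase, was highest in Sirt1KO ESC, with 43.0 ± 1.76 FPKM in EpiLC, 28.1 ± 0.37 in Sirt1KO Otx2KD ESC, 52.1 ± 1.65 in Sirt1KO ESC and 32.9 ± 2.22 in wild-type ESC. Nsdhl and Hsd17b7, which act with Sc4mol in demethylation, changed by 0.35 and 0.59 in EpiLC against wild-type ESC, 0.39 and 0.39 in Sirt1KO ESC against wild-type ESC, and -0.84 and -0.32 in Sirt1KO Otx2KD ESC against Sirt1KO ESC. With the chromosome medians removed, Nsdhl, on the X chromosome, changed by 0.13 in EpiLC against wild-type ESC and lost its call (adjusted p = 0.0977).

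Ebp, the sterol isomerase late in the branch (locus chrX:7762457-7770638 in mm9), went against its neighbours. Ebp had 16.1, 16.9 and 15.1 FPKM in EpiLC, 19.3, 19.9 and 16.99 in Sirt1KO Otx2KD ESC, 18.5, 20.5 and 23.5 in Sirt1KO ESC and 52.0, 53.9 and 49.1 in wild-type ESC. All 9 libraries outside wild-type ESC lay between 15.1 and 23.5 FPKM, below the wild-type ESC range of 49.1 to 53.9. Ebp fell by 1.63 ± 0.08 in EpiLC (0.309 of the wild-type ESC mean, limma adjusted p = 3.06e-10) and by 1.28 ± 0.08 in Sirt1KO ESC (adjusted p = 7.75e-09) against wild-type ESC. Its -0.14 ± 0.08 in Sirt1KO Otx2KD ESC against Sirt1KO ESC did not pass (adjusted p = 0.139), but was -0.22 and passed without Sirt1KO ESC replicate 1 (adjusted p = 0.026). Ebp was still lower in Sirt1KO Otx2KD ESC than in wild-type ESC (-1.42 ± 0.08, adjusted p = 7.53e-09). The median change of all 422 tested loci of the X chromosome, where Ebp lies, was 0.10 in EpiLC and 0.00 in Sirt1KO ESC against wild-type ESC. Tm7sf2, a sterol reductase in the same branch whose locus carries a merged name with 1110014N23Rik, lay between 22.1 and 27.2 FPKM in all libraries and passed in no comparison.

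Across the 4 groups at once, all 6 EpiLC and Sirt1KO ESC libraries lay above all 6 Sirt1KO Otx2KD ESC and wild-type ESC libraries for 12 of the 16 sterol synthesis genes (75.0%) and 16 of all 32 genes. The same order held for 13.6% of all 12320 tested loci, and the groups were joined in this way with their levels known. The opposite order held for none of the sterol synthesis genes, against 14.6% of all loci. Between EpiLC against wild-type ESC and Sirt1KO Otx2KD ESC against Sirt1KO ESC, which share no library, the changes of 15 of the 16 sterol synthesis genes had opposite signs. Across these 16 genes, which share libraries and are not independent, Pearson's r was -0.71 and Spearman's rho -0.72. Over all 12320 loci the values were -0.45 and -0.45, and 8041 loci had opposite signs.

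The genes for the SREBP system itself were not ordered across the groups as most synthesis genes were. Of the 5 regulators, 2 rose and 2 fell in EpiLC against wild-type ESC, 1 rose in Sirt1KO ESC against wild-type ESC, and 1 rose and 2 fell in Sirt1KO Otx2KD ESC against Sirt1KO ESC. With 35.8% of all tested loci higher and 38.8% lower, 32.4% and 32.7%, and 31.1% and 31.5% in these comparisons, counts over 5 genes do not stand apart from the background. Srebf2, which encodes the factor most tied to sterol genes, was the most abundant of the 5 regulators in every group. Srebf2 had 113, 111 and 110.1 FPKM in EpiLC, 84.9, 81.9 and 82.1 in Sirt1KO Otx2KD ESC, 84.8, 82.1 and 78.7 in Sirt1KO ESC and 82.2, 88.7 and 83.9 in wild-type ESC. EpiLC stood above the 3 ESC groups, which overlapped. Srebf2 rose by 0.39 ± 0.04 in EpiLC against wild-type ESC (limma adjusted p = 4.28e-07). The differences were -0.05 ± 0.04 in Sirt1KO ESC against wild-type ESC (adjusted p = 0.247) and 0.02 ± 0.04 in Sirt1KO Otx2KD ESC against Sirt1KO ESC (adjusted p = 0.679), neither past the threshold. With the chromosome medians removed, Srebf2 was called lower in Sirt1KO ESC than in wild-type ESC (-0.12, adjusted p = 0.011).

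Srebf1 encodes the SREBP form most tied to fatty acid genes. Srebf1 had 21.7, 19.8 and 18.3 FPKM in EpiLC, 25.4, 27.7 and 27.7 in Sirt1KO Otx2KD ESC, 25.7, 28.0 and 27.3 in Sirt1KO ESC and 25.8, 28.6 and 28.4 in wild-type ESC. EpiLC lay below the other groups, which overlapped. Srebf1 fell by 0.45 ± 0.06 in EpiLC against wild-type ESC (limma adjusted p = 1.75e-05), which was -0.00 (adjusted p = 0.997) with the chromosome medians removed, since chromosome 11 as a whole was lower. In Sirt1KO ESC against wild-type ESC the difference was -0.03 ± 0.06 (adjusted p = 0.708) as measured and 0.42 (adjusted p = 7.02e-05) relative to its chromosome. The deposited locus span of Srebf1 is shared with Rai1, which reached at most 2.64 FPKM.

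Scap, the sterol sensor that escorts SREBP, was low in level. Scap had 10.4, 10.5 and 10.97 FPKM in EpiLC, 12.1, 11.5 and 12.1 in Sirt1KO Otx2KD ESC, 8.29, 7.31 and 7.08 in Sirt1KO ESC and 6.49, 7.07 and 7.93 in wild-type ESC. EpiLC and Sirt1KO Otx2KD ESC lay above Sirt1KO ESC and wild-type ESC, which overlapped. Scap rose by 0.51 ± 0.07 in EpiLC against wild-type ESC and by 0.59 ± 0.07 in Sirt1KO Otx2KD ESC against Sirt1KO ESC (limma adjusted p = 1.7e-05 and 7.68e-06), so in the second comparison it moved opposite to the synthesis genes. Insig1, a retention factor that is itself a well-known SREBP target, was lowest in Sirt1KO Otx2KD ESC. Insig1 had 64.6, 59.3 and 62.3 FPKM in EpiLC, 40.7, 45.8 and 41.3 in Sirt1KO Otx2KD ESC, 71.4, 80.5 and 80.5 in Sirt1KO ESC and 76.3, 73.3 and 70.9 in wild-type ESC. Sirt1KO ESC and wild-type ESC overlapped, and EpiLC lay between them and Sirt1KO Otx2KD ESC. Insig1 fell by 0.85 ± 0.06 in Sirt1KO Otx2KD ESC against Sirt1KO ESC and by 0.24 ± 0.06 in EpiLC against wild-type ESC (limma adjusted p = 2.43e-08 and 0.00164). Its 0.07 ± 0.06 in Sirt1KO ESC against wild-type ESC did not pass (adjusted p = 0.278), but was 0.14 and passed with the chromosome medians removed (adjusted p = 0.046).

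Insig2, the other retention factor, changed little. Insig2 had 9.47, 9.33 and 9.73 FPKM in EpiLC, 8.11, 9.76 and 8.83 in Sirt1KO Otx2KD ESC, 10.8, 12.1 and 10.5 in Sirt1KO ESC and 10.1, 8.93 and 9.95 in wild-type ESC. Sirt1KO ESC was highest, and Sirt1KO Otx2KD ESC overlapped EpiLC and wild-type ESC. Its rise of 0.19 ± 0.07 in Sirt1KO ESC against wild-type ESC (limma adjusted p = 0.0367) lost its call without Sirt1KO ESC replicate 2 (adjusted p = 0.168) or without wild-type ESC replicate 2 (adjusted p = 0.15), and with the chromosome medians removed (adjusted p = 0.283). In Sirt1KO Otx2KD ESC against Sirt1KO ESC it fell by 0.29 ± 0.07 (adjusted p = 0.00315).

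**Figure D4:**
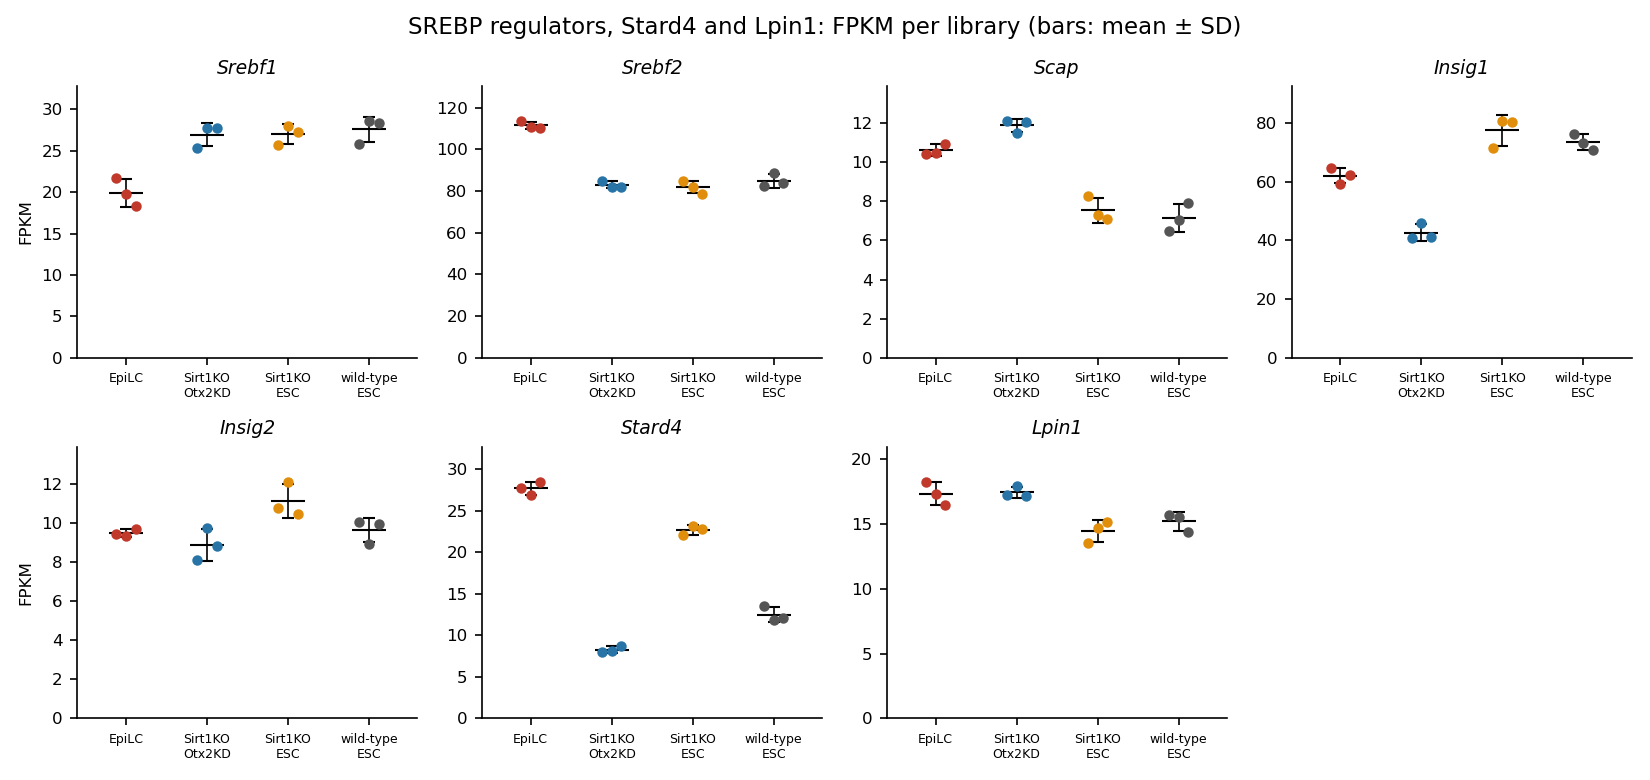
FPKM per library (points, with mean ± SD) of the 5 SREBP regulators, Stard4 and Lpin1, each panel with its own linear axis from 0. Srebf2 is higher in EpiLC, with the ESC groups overlapping, while Stard4 separates all 4 groups.

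Stard4, a protein that moves cholesterol between membranes and a known SREBP target, changed more than any of the regulators. Stard4 had 27.7, 26.9 and 28.4 FPKM in EpiLC, 8.0002, 8.08 and 8.71 in Sirt1KO Otx2KD ESC, 22.1, 23.2 and 22.8 in Sirt1KO ESC and 13.5, 11.8 and 12.1 in wild-type ESC. The 4 groups did not overlap. Stard4 changed by 1.09 ± 0.06 in EpiLC against wild-type ESC (2.22-fold, limma adjusted p = 4.05e-10), 0.81 ± 0.06 in Sirt1KO ESC against wild-type ESC (adjusted p = 1.61e-08) and -1.35 ± 0.06 in Sirt1KO Otx2KD ESC against Sirt1KO ESC (0.364 of the Sirt1KO ESC mean, adjusted p = 1.88e-10), which was the largest fall of the 32 genes in that comparison. Lpin1, which makes diacylglycerol for lipid synthesis, moved little. Lpin1 had 18.2, 17.3 and 16.5 FPKM in EpiLC, 17.2, 17.9 and 17.2 in Sirt1KO Otx2KD ESC, 13.5, 14.7 and 15.1 in Sirt1KO ESC and 15.7, 15.6 and 14.4 in wild-type ESC. EpiLC and Sirt1KO Otx2KD ESC overlapped, as did Sirt1KO ESC and wild-type ESC. Lpin1 rose by 0.25 ± 0.06 in Sirt1KO Otx2KD ESC against Sirt1KO ESC (limma adjusted p = 0.0013), and its 0.18 ± 0.06 in EpiLC against wild-type ESC (adjusted p = 0.0105) lost its call without EpiLC replicate 1 or wild-type ESC replicate 3 (adjusted p = 0.0512 and 0.0525).

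Within fatty acid synthesis the desaturase genes Scd2, Fads1 and Fads2 had the order of the sterol genes, with EpiLC and Sirt1KO ESC above both other groups. The remaining desaturase gene, Scd1, and the genes for the earlier steps did not. Fads2 and Fads1, neighbours on chromosome 19, encode desaturases of polyunsaturated fatty acid synthesis. Fads2 had 81.6, 79.0 and 79.2 FPKM in EpiLC, 40.8, 36.4 and 37.4 in Sirt1KO Otx2KD ESC, 55.8, 56.5 and 55.5 in Sirt1KO ESC and 41.3, 43.5 and 42.5 in wild-type ESC. Fads1 had 53.3, 55.5 and 52.4 FPKM in EpiLC, 23.3, 25.6 and 23.5 in Sirt1KO Otx2KD ESC, 35.7, 36.5 and 36.5 in Sirt1KO ESC and 26.3, 28.9 and 28.9 in wild-type ESC. EpiLC lay above Sirt1KO ESC, which lay above the other groups, and for both genes Sirt1KO Otx2KD ESC lay below wild-type ESC. Fads2 changed by 0.90 ± 0.04 in EpiLC against wild-type ESC, 0.39 ± 0.04 in Sirt1KO ESC against wild-type ESC and -0.54 ± 0.04 in Sirt1KO Otx2KD ESC against Sirt1KO ESC (limma adjusted p = 1.88e-10, 1.94e-06 and 1.08e-07). Fads1 changed by 0.92 ± 0.05, 0.36 ± 0.05 and -0.57 ± 0.05 in the same comparisons (adjusted p = 6.61e-10, 1.67e-05 and 2.56e-07).

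The stearoyl-CoA desaturases Scd1 and Scd2 make monounsaturated fatty acids. They are similar neighbouring genes, and how reads common to both were divided is not given in the sources used here. Scd2 had the highest level of the 32 genes in every group. Scd2 had 348, 345 and 339.6 FPKM in EpiLC, 218, 216 and 219.6 in Sirt1KO Otx2KD ESC, 345, 385 and 382 in Sirt1KO ESC and 277, 285 and 274 in wild-type ESC. EpiLC and Sirt1KO ESC overlapped above wild-type ESC, which lay above Sirt1KO Otx2KD ESC. Scd2 changed by 0.30 ± 0.04 in EpiLC against wild-type ESC, 0.41 ± 0.04 in Sirt1KO ESC against wild-type ESC and -0.76 ± 0.04 in Sirt1KO Otx2KD ESC against Sirt1KO ESC (limma adjusted p = 4.33e-06, 3.23e-07 and 1.02e-09). Scd1 had 77.5, 77.5 and 78.6 FPKM in EpiLC, 79.2, 73.7 and 75.2 in Sirt1KO Otx2KD ESC, 110.0, 129.6 and 129 in Sirt1KO ESC and 90.6, 86.5 and 84.4 in wild-type ESC. Sirt1KO ESC stood above the other groups. Scd1 changed by 0.49 ± 0.06 in Sirt1KO ESC against wild-type ESC and -0.68 ± 0.06 in Sirt1KO Otx2KD ESC against Sirt1KO ESC (limma adjusted p = 3.15e-06 and 1.54e-07). Its -0.16 ± 0.06 in EpiLC against wild-type ESC (adjusted p = 0.0171) was -0.043 with quantile normalization (adjusted p = 0.474), and it also lost its call without wild-type ESC replicate 1 (adjusted p = 0.0681).

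Acly and Acss2 supply cytosolic acetyl-CoA from citrate and from acetate. Acly had 181, 183 and 179 FPKM in EpiLC, 143, 137 and 143 in Sirt1KO Otx2KD ESC, 172, 179.5 and 181 in Sirt1KO ESC and 235, 233 and 227 in wild-type ESC. Wild-type ESC was highest and Sirt1KO Otx2KD ESC lowest, with EpiLC and Sirt1KO ESC overlapping between them. Acly was lower than in wild-type ESC in EpiLC (-0.35 ± 0.03) and in Sirt1KO ESC (-0.38 ± 0.03), with limma adjusted p of 1.03e-07 and 8.06e-08. With the chromosome medians removed the values for Acly, on chromosome 11, were 0.10 (adjusted p = 0.0219) and 0.062 (adjusted p = 0.142), so the direction turned. In Sirt1KO Otx2KD ESC against Sirt1KO ESC Acly fell by 0.33 ± 0.03 (adjusted p = 5.1e-07). Acss2 ran the other way from the sterol genes. Acss2 had 3.95, 3.83 and 3.98 FPKM in EpiLC, 8.49, 9.06 and 9.52 in Sirt1KO Otx2KD ESC, 5.49, 5.97 and 5.19 in Sirt1KO ESC and 6.95, 7.20 and 8.22 in wild-type ESC. The 4 groups did not overlap, with EpiLC lowest and Sirt1KO Otx2KD ESC highest. Acss2 changed by -0.78 ± 0.07 in EpiLC against wild-type ESC, -0.37 ± 0.07 in Sirt1KO ESC against wild-type ESC and 0.61 ± 0.07 in Sirt1KO Otx2KD ESC against Sirt1KO ESC (limma adjusted p = 2.72e-07, 0.000527 and 6.44e-06).

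**Figure D5:**
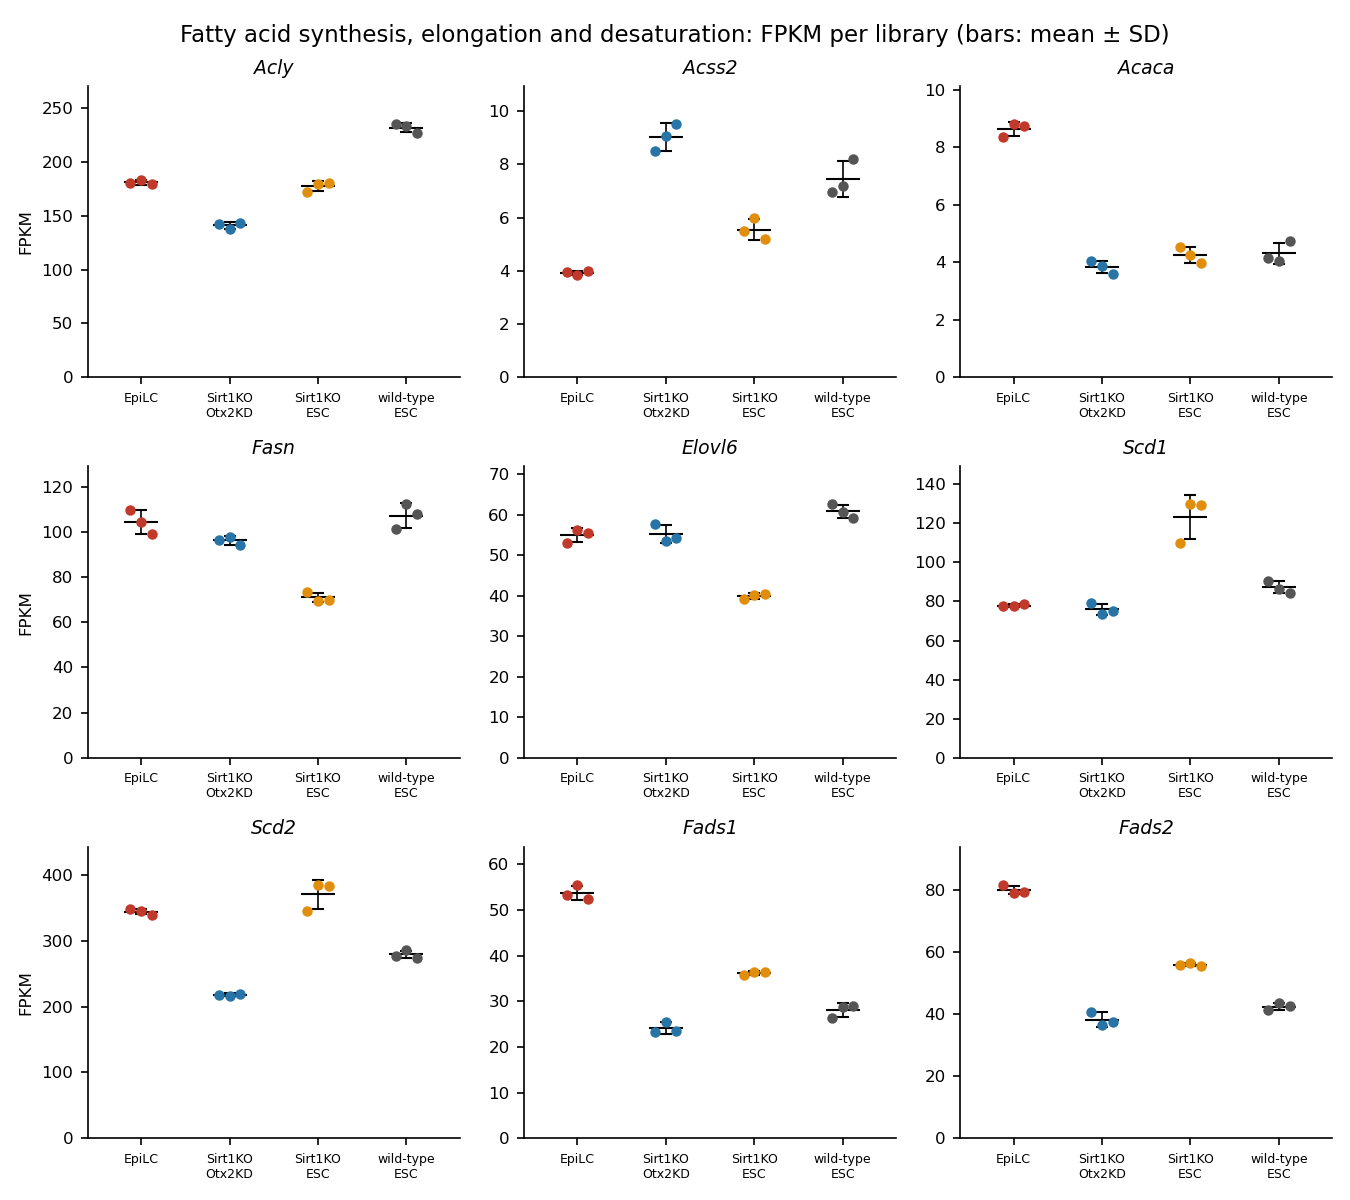
FPKM per library (points, with mean ± SD) of the 9 fatty acid synthesis genes, each panel with its own linear axis from 0. Scd2, Fads1 and Fads2 are high in EpiLC and Sirt1KO ESC, whereas Fasn and Elovl6 are lowest in Sirt1KO ESC.

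Acaca, the acetyl-CoA carboxylase that commits carbon to fatty acids, was high in EpiLC. Acaca had 8.34, 8.81 and 8.73 FPKM in EpiLC, 4.03, 3.87 and 3.604 in Sirt1KO Otx2KD ESC, 4.54, 4.26 and 3.98 in Sirt1KO ESC and 4.16, 4.04 and 4.73 in wild-type ESC. Sirt1KO ESC overlapped both other ESC groups, while Sirt1KO Otx2KD ESC lay just below wild-type ESC. Acaca rose by 0.86 ± 0.07 in EpiLC against wild-type ESC (2.00-fold, limma adjusted p = 8.4e-08), although chromosome 11 as a whole was lower. In Sirt1KO ESC against wild-type ESC it was at -0.01 ± 0.07 (adjusted p = 0.888) as measured, and 0.43 (adjusted p = 0.000185) relative to its chromosome. Fasn, the fatty acid synthase, was lowest in Sirt1KO ESC. Fasn had 109.8, 104 and 99.2 FPKM in EpiLC, 96.7, 97.9 and 94.3 in Sirt1KO Otx2KD ESC, 73.5, 69.6 and 70.1 in Sirt1KO ESC and 101, 112 and 108 in wild-type ESC. EpiLC overlapped wild-type ESC, and Sirt1KO Otx2KD ESC lay just below both. Fasn fell by 0.58 ± 0.04 in Sirt1KO ESC against wild-type ESC and rose by 0.43 ± 0.04 in Sirt1KO Otx2KD ESC against Sirt1KO ESC (limma adjusted p = 6.08e-08 and 1.76e-06). Relative to its chromosome the first of these was -0.14 (adjusted p = 0.0221). In EpiLC against wild-type ESC the difference of Fasn was -0.04 ± 0.04 (adjusted p = 0.492) as measured and 0.42 (adjusted p = 2.31e-06) relative to its chromosome.

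Elovl6, which elongates the product of Fasn and lies on chromosome 3, showed the same order as Fasn in the ESC groups. Elovl6 had 52.9, 56.3 and 55.3 FPKM in EpiLC, 57.6, 53.4 and 54.3 in Sirt1KO Otx2KD ESC, 39.2, 40.2 and 40.4 in Sirt1KO ESC and 62.5, 60.6 and 59.2 in wild-type ESC. Sirt1KO ESC lay below every other library. Elovl6 fell by 0.59 ± 0.04 in Sirt1KO ESC against wild-type ESC and rose by 0.46 ± 0.04 in Sirt1KO Otx2KD ESC against Sirt1KO ESC (limma adjusted p = 1.53e-08 and 3.41e-07). Fasn and Elovl6 thus moved opposite to most sterol synthesis genes in both comparisons. These comparisons share the Sirt1KO ESC libraries with opposite sign, so a gene low only there falls in the first and rises in the second. The 2 are therefore not counted as independent. The -0.15 ± 0.04 of Elovl6 in EpiLC against wild-type ESC (adjusted p = 0.00464) lost its call with quantile normalization (adjusted p = 0.21).

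Set directly against wild-type ESC, Sirt1KO Otx2KD ESC was lower in most fatty acid synthesis genes and divided in the sterol synthesis genes. Of the 32 genes 6 were higher and 15 lower, where 27.1% of all tested loci were higher and 26.8% lower, and the median was -0.12, against -0.00 over all loci. Of the sterol synthesis genes 3 were higher (Mvk, Mvd and Sc4mol) and 6 lower (Acat2, Sqle, Cyp51, Nsdhl, Ebp and Dhcr7), with a median of -0.07. Mvd and Sc4mol were both at 0.32, close to the chromosome 8 median of 0.36, and with the chromosome medians removed they were at -0.084 and -0.084. Of the fatty acid synthesis genes 7 were lower and 1 higher (Acss2), with Acly changed most as measured (-0.71 ± 0.03, limma adjusted p = 6.7e-10). With the chromosome medians removed, Acly was at -0.32, behind Scd2 (-0.49), Fads1 (-0.34) and Scd1 (-0.33). Acss2 lost its call without Sirt1KO Otx2KD ESC replicate 3 (adjusted p = 0.0503). Insig1 (-0.77 ± 0.06) and Stard4 (-0.54 ± 0.06) were lower, and Scap (0.66 ± 0.07) was higher. The 11 tested fibroblast markers were all higher in Sirt1KO Otx2KD ESC than in wild-type ESC too, and their part in these values was not tested.

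Set directly against Sirt1KO ESC, EpiLC was higher in most of the fatty acid synthesis genes that passed. These groups differ in genotype, cell state and medium, and may differ in cell line, which cannot be told apart here. The 3 tested loci of the Y chromosome had a median change of 1.90 in this comparison. Of the 32 genes 17 were higher and 9 lower in EpiLC than in Sirt1KO ESC, where 34.0% of all tested loci were higher and 35.1% lower. The median difference was 0.12 over the 16 sterol synthesis genes and 0.45 over the 9 fatty acid synthesis genes, against -0.01 over all loci. Lss (0.77 ± 0.05) was the largest difference among the sterol genes. Acaca (0.87 ± 0.07), Fads1 (0.56 ± 0.05), Fasn (0.55 ± 0.04), Fads2 (0.51 ± 0.04) and Elovl6 (0.45 ± 0.04) were higher in EpiLC, and Scd1 (-0.65 ± 0.06), Acss2 (-0.41 ± 0.07) and Scd2 (-0.11) were lower. The value of Scd2 turned to 0.068 with quantile normalization, and lost its call without EpiLC replicate 3 or Sirt1KO ESC replicate 2 or 3 (limma adjusted p = 0.0609, 0.103 and 0.0887). Without a test of the lists against each other, which was not made, the difference of their medians is a description. All 11 tested fibroblast and feeder markers were higher in EpiLC than in Sirt1KO ESC as well, with a median of 1.63, and their part in these values was not tested.

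Other genes of sterol synthesis and uptake, which are not among the 33, included some with the same order of groups. Of 8 tested, 6 rose and none fell in EpiLC against wild-type ESC, 4 rose and 1 fell in Sirt1KO ESC against wild-type ESC, and 2 rose and 5 fell in Sirt1KO Otx2KD ESC against Sirt1KO ESC, with medians of 0.42, 0.13 and -0.36. Over all tested loci 35.8% were higher and 38.8% lower in the first of these comparisons, 32.4% and 32.7% in the second, and 31.1% and 31.5% in the third, with medians of -0.02, 0.01 and -0.01. Sc5d, a sterol desaturase near the end of cholesterol synthesis, changed by 0.86 ± 0.05 in EpiLC against wild-type ESC, 1.03 ± 0.05 in Sirt1KO ESC against wild-type ESC and -1.03 ± 0.05 in Sirt1KO Otx2KD ESC against Sirt1KO ESC (limma adjusted p = 3.21e-09, 1.04e-09 and 1.65e-09).

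Genes of sterol efflux and of the sterol-sensing LXR receptors were mixed. Of 5 tested, 1 rose and 4 fell in EpiLC against wild-type ESC, 3 rose and 2 fell in Sirt1KO ESC against wild-type ESC, and 2 rose and 1 fell in Sirt1KO Otx2KD ESC against Sirt1KO ESC, with medians of -0.31, 0.29 and -0.05. Apoe, the lipid-carrying apolipoprotein, was at 319.5 ± 8.04 FPKM in EpiLC and 636 ± 15.7 in wild-type ESC (-0.99 ± 0.03, limma adjusted p = 1.36e-12). Abcg1, a sterol exporter, changed by 1.45 ± 0.09 in EpiLC and 1.00 ± 0.09 in Sirt1KO ESC against wild-type ESC, and Mylip, a ubiquitin ligase induced by LXR, by -1.16 ± 0.10 and 0.29 ± 0.10. The rise of Mylip in Sirt1KO ESC (limma adjusted p = 0.0231) lost its call without wild-type ESC replicate 1 (0.20, adjusted p = 0.112), without Sirt1KO ESC replicate 1 (adjusted p = 0.0619) and with the chromosome medians removed (0.19, adjusted p = 0.156). Of 4 genes of sterol storage and lysosomal release, 1 rose and 2 fell in EpiLC against wild-type ESC, 2 fell in Sirt1KO ESC against wild-type ESC, and 3 rose and 1 fell in Sirt1KO Otx2KD ESC against Sirt1KO ESC, with medians of -0.40, -0.48 and 0.32. Lists this short cannot be set apart from the shares of all tested loci, which were 35.8% higher and 38.8% lower, 32.4% and 32.7%, and 31.1% and 31.5% in the same comparisons. Npc1, which exports cholesterol from lysosomes, ran opposite to the sterol genes, with 11.5 ± 0.409 FPKM in EpiLC, 22.0 ± 0.437 in Sirt1KO Otx2KD ESC, 10.7 ± 0.585 in Sirt1KO ESC and 21.7 ± 0.82 in wild-type ESC. Its partner Npc2 was at 45.3 ± 0.829, 99.6 ± 1.89, 90.3 ± 4.72 and 85.0 ± 0.899 FPKM in the same order, and Soat1, which esterifies cholesterol, changed by 1.29 ± 0.08 in EpiLC against wild-type ESC (limma adjusted p = 2.96e-09). The deposited locus span of Npc1 is shared with 3110002H16Rik, which reached at most 29.1 FPKM.

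Of 12 further genes of fatty acid synthesis and activation, 5 rose and 4 fell in EpiLC against wild-type ESC, 7 rose and 4 fell in Sirt1KO ESC against wild-type ESC, and 4 rose and 7 fell in Sirt1KO Otx2KD ESC against Sirt1KO ESC, with medians of 0.09, 0.26 and -0.18. In the first comparison these counts lay near the background of 35.8% higher and 38.8% lower, and the others stood beside 32.4% and 32.7%, and 31.1% and 31.5%. Acsl4, which activates polyunsaturated fatty acids, had the order of the sterol genes, with 48.6 ± 3.62 FPKM in EpiLC, 8.08 ± 0.396 in Sirt1KO Otx2KD ESC, 22.5 ± 1.55 in Sirt1KO ESC and 9.30 ± 0.824 in wild-type ESC. Elovl7, a fatty acid elongase, was low in EpiLC, with 1.78 ± 0.0751 FPKM against 7.35 ± 0.338 in wild-type ESC (-1.58 ± 0.07, limma adjusted p = 6.31e-11). Mlx, the partner of the sugar-sensing factor that drives lipid genes, lies on chromosome 11 and was at 24.6 ± 0.829 FPKM in EpiLC, 35.0 ± 1.72 in Sirt1KO Otx2KD ESC, 31.8 ± 2.32 in Sirt1KO ESC and 53.9 ± 0.878 in wild-type ESC. Its changes against wild-type ESC were -1.10 in EpiLC, -0.61 in Sirt1KO Otx2KD ESC and -0.75 in Sirt1KO ESC, and with the chromosome medians removed -0.65, -0.21 and -0.30, still past the threshold. The deposited locus span of Mlx is shared with Psmc3ip, which reached at most 44.4 FPKM.

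Genes of mitochondrial fatty acid oxidation, the breakdown of fatty acids, had a sum that was low where that of sterol synthesis was high. The summed level of 12 genes was 135, 129 and 131 FPKM in EpiLC, 325, 329.9 and 337 in Sirt1KO Otx2KD ESC, 202, 211 and 223 in Sirt1KO ESC and 323, 312 and 315 in wild-type ESC. Of the 10 tested, 8 fell and 2 rose in EpiLC against wild-type ESC, with a median of -1.02. In Sirt1KO ESC against wild-type ESC 7 fell and 2 rose (median -0.45), and in Sirt1KO Otx2KD ESC against Sirt1KO ESC 6 rose and 3 fell (median 0.33). Over all tested loci 38.8% were lower and 35.8% higher in the first of these comparisons, 32.7% and 32.4% in the second, and 31.5% and 31.1% in the third. Slc25a20, the carnitine carrier of the inner mitochondrial membrane, led this list. Slc25a20 had 12.4, 10.97 and 10.4 FPKM in EpiLC, 72.4, 74.7 and 75.4 in Sirt1KO Otx2KD ESC, 23.5, 26.2 and 29.6 in Sirt1KO ESC and 71.9, 73.7 and 72.9 in wild-type ESC. Sirt1KO Otx2KD ESC and wild-type ESC overlapped, and Sirt1KO ESC lay between them and EpiLC. Slc25a20 changed by -2.59 ± 0.07 in EpiLC against wild-type ESC, -1.44 ± 0.07 in Sirt1KO ESC against wild-type ESC and 1.46 ± 0.07 in Sirt1KO Otx2KD ESC against Sirt1KO ESC (limma adjusted p = 1.44e-12, 1.05e-09 and 1.45e-09). Acaa2, the thiolase that ends each round of oxidation, changed by -2.64 ± 0.08, -1.05 ± 0.08 and 1.23 ± 0.08, and Cpt1a, which admits fatty acids to mitochondria, by -2.37 ± 0.07, -0.72 ± 0.07 and 0.25 ± 0.07 in the same comparisons. The last of these values of Cpt1a was 0.053 with the chromosome medians removed (limma adjusted p = 0.573).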

How the data were processed

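The deposited values are FPKM per locus, fragments scaled to transcript length and library size, 1 file per library, made by the authors with TopHat, Cufflinks and Cuffdiff on the mouse build mm9, per the submitters' processing notes. Versions, strand use, library size normalization and the division of shared reads are not given in the sources used here. RNA was oligo-dT selected and made into TruSeq libraries, per the labels' protocols. Loci with merged names count for each gene in the name. Unnamed loci (4778) hold 95.3% to 96.9% of the FPKM sum of each library and were left out of the main test. Named loci above 0 FPKM numbered 15775 to 16408 per library, and no pair of libraries was identical. FPKM carry no counts, so no counting interval was given.

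Loci with at least 1 FPKM in at least 3 of 12 libraries were tested on log2(FPKM + 1) with limma 3.58.1 (R 4.3.3), with trend and robust variance, 1 fit over all 4 groups with 8 residual degrees of freedom, and Benjamini-Hochberg adjusted p under 0.05 over all 12320 loci. Per-library values were given for the 3 genes per role with the largest moderated statistic over the 3 main comparisons, for Srebf1, Srebf2, Scap, Insig1, Insig2, Scd1 and Scd2, and for the remaining fatty acid synthesis genes and Ebp, added after their values were seen. Up to 3 genes per wider list were named by the same statistic, and some genes of these lists are not reported here. The genes, lists and tests were chosen with earlier results of these data known. Replicate numbers did not pair the libraries: correlations of same-numbered deviations from the group means ran from -0.107 to 0.170. Alternatives were other scalings, pseudocounts, filters and variance settings, a replicate block and each replicate left out. In a further alternative the median level of each chromosome was removed from each library. Promoter windows are from RefSeq (GRCm38.p6). The mm9 coordinates of loci were not converted.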

Additional observations from a re-analysis of the deposited data

How the results depend on the processing

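Removing the median level of each chromosome from each library altered most. It left 4 of the 32 genes lower in EpiLC against wild-type ESC, 2 of them of fatty acid synthesis, and in Sirt1KO Otx2KD ESC against wild-type ESC 1 sterol and 3 fatty acid synthesis genes higher. It turned the sign of Acly (0.10) and Fasn (0.42) in EpiLC against wild-type ESC, of Acaca (0.43), Srebf1 (0.42) and Acly (0.062) in Sirt1KO ESC against wild-type ESC, of Tm7sf2 (-0.17) in Sirt1KO Otx2KD ESC against Sirt1KO ESC, of Acaca (0.26), Srebf1 (0.36), Fasn (0.24), Sc4mol (-0.084) and Mvd (-0.084) in Sirt1KO Otx2KD ESC against wild-type ESC, and of Fdft1 (-0.063) in EpiLC against Sirt1KO ESC. Quantile normalization left 2 fatty acid synthesis genes lower in EpiLC against wild-type ESC, and turned Scd2 (0.068) and Sc4mol (0.14) in EpiLC against Sirt1KO ESC. The cause of each change was not tested. The first setting takes out median levels, which need not equal the median change of the loci of a chromosome. On the X chromosome in EpiLC against wild-type ESC that median change was 0.10, while Ebp went from -1.63 to -1.85. Leaving out the 6 genes on chromosomes 8 and 11, an alternative added after seeing the data, left 3 of 26 genes lower in Sirt1KO ESC against wild-type ESC.

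Without 1 replicate at a time, the genes called ranged from 20 to 21 higher and 6 to 7 lower in EpiLC against wild-type ESC, 18 to 19 higher and 5 lower in Sirt1KO ESC against wild-type ESC, and 5 higher and 20 to 21 lower in Sirt1KO Otx2KD ESC against Sirt1KO ESC. Fatty acid synthesis genes called higher in Sirt1KO Otx2KD ESC against wild-type ESC ranged from 0 to 1, with 0 without Sirt1KO Otx2KD ESC replicate 3. Of 3675 single-gene values over all alternatives, 3578 kept their call, 52 of them with another sign where neither value passed, 57 lost the call, 26 gained it, and 14 changed sign with at least 1 value past the threshold.

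With the replicate number as a block, 21 genes were higher and 7 lower in EpiLC against wild-type ESC, 18 and 5 in Sirt1KO ESC against wild-type ESC, and 5 and 20 in Sirt1KO Otx2KD ESC against Sirt1KO ESC. Since the numbers do not pair the libraries, the call of Insig2 in Sirt1KO ESC against wild-type ESC that was lost there (limma adjusted p = 0.0517) is not read as a weaker effect. Genes near 1 FPKM, such as Idi1, are the least precise, and 3 libraries a group limit all of them.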
